A study of Caenorhabditis elegans with 40 samples.

Results

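The sperm genes outside the major sperm protein (MSP) family were defined by gene name alone: every gene of the table named in the families nspa, nspb, nspc, nspd, nspe, ssp, spe, smz or spch, together with gsp-3, gsp-4 and fer-1. The rule found 55 of the 11933 genes in the table, and it used no measured value. They were 17 spe, 10 ssp, 10 nspd, 10 nspc, 2 nspa, 2 smz and 1 nspe gene with gsp-3, gsp-4 and fer-1, while no gene of nspb or spch was found. Of the 55 members, 41 passed the filter on low counts and were tested, and 14 did not (7 spe, 5 nspc, 1 nspa and 1 nspe). RNA of whole Caenorhabditis elegans was measured at 5 stages, the larval stages L1, L2, L3 and L4 and the young adult (YA), in 4 biological repeats of each sex, which gave 10 groups and 40 libraries. Male worms carried 2 mutations, dpy-28(y1);him-8(e1489). The gene dpy-28 encodes a subunit of the dosage compensation complex, which lowers transcription from the X chromosomes of XX animals, and its temperature-sensitive allele y1 kills most of them, while him-8(e1489) raises the share of XO males among the progeny. Hermaphrodites were of the wild-type strain N2, and both strains were kept at 25 °C with no other agent. Sex and strain were the same split of the libraries and cannot be told apart in any comparison of males with hermaphrodites, whereas a change with stage lies within a strain. Because whole animals were measured, fewer germ cells and less RNA per germ cell cannot be told apart either.

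Sperm of C. elegans are amoeboid cells that crawl with the help of MSP filaments. Males make sperm throughout adult life, whereas hermaphrodites make a limited supply late in larval development and then switch the germline to oocytes. The genes studied here encode kinases, phosphatases, channels and fusion proteins of the sperm (spe, gsp and fer genes), small MSP-domain proteins (ssp), PDZ-domain proteins of sperm (smz) and short peptides of nematode-specific families (nsp).

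In the genome build WBcel235 the members did not share 1 location, but the families differed in gene structure. The 9 nspd genes placed by the Ensembl annotation each had 1 exon and a length of 213 to 222 bases, as did 8 of 9 ssp genes (324 to 330 bases), against 4.12% of the 11686 placed genes. For 19 of 20 nspa, nspd and ssp models that length is a multiple of 3 and the annotation holds no UTR, so it is a coding length. None of the 45 members outside nspc lay on X, where 13.3% of all placed genes lie, whereas all 10 nspc genes did. nspd-1 (chromosome I, 6097579 to 6097791, minus strand) lay close to ssp-16 (I, 6102067 to 6102396, plus strand), and nspd-2 (IV, 9844060 to 9844272, plus strand) close to ssp-10 (IV, 9850702 to 9851031, minus strand). The transcription factor gene spe-44 (IV, 12452063 to 12454215) neighboured smz-1 (IV, 12455050 to 12456299). The nspd genes and the ssp genes are families of similar short genes, so how reads were divided among their members is uncertain. For ssp-9 and ssp-11 the Ensembl annotation gives the name ssp-9 to both loci, and ssp-11 (IV, 4999485 to 4999814) was placed through RefSeq, as was nspd-11, which RefSeq lists as a pseudogene (I, 14993824 to 14993959).

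Libraries held 1724365 to 14129759 UMI counts (median 5616412). Levels are given below as normalized CPM, the UMI counts in each 1000000 counts of a library after TMM scaling, and values of the 4 libraries of a group follow the order of their repeat numbers. The YA hermaphrodite libraries stood apart from each other. Their TMM factors were 1.03, 0.595, 0.534 and 1.03 for repeats 1 to 4. Scaling therefore raised repeats 2 and 3 beside repeats 1 and 4, which shares of UMIs do not. Genes of male seminal fluid and somatic gonad took 0.00339, 1.83e-05, 0 and 0.00280% of the UMIs of repeats 1 to 4, against 0.0380 to 0.0512% in YA males, and clec-207 of this list, a C-type lectin gene, was at 24.3, 0.308, 0 and 22.7 CPM. The share of male neuron and tail genes was 8.87e-04, 5.50e-05, 4.92e-05 and 6.51e-04% in these 4 libraries and 0.00880 to 0.0122% in YA males. The MSP genes took 0.359, 0.0387, 0.0514 and 0.349%, and the oocyte and eggshell genes 0.737, 1.25, 1.11 and 1.05%. Repeats 1 and 4 were therefore high and repeats 2 and 3 low in male genes and in MSP genes. Results of members that rest on YA hermaphrodites are given with all 4 libraries and without repeats 1 and 4. Counts of other gene lists use all 4 libraries. The 3 seminal fluid genes included 1, 2, 3 and 1 at 0 in these libraries. The part that male tissue had in any level of repeats 1 and 4 was not tested.

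The summed share of the 55 members followed stage in both sexes. It was 0.00412 to 0.00574% of UMIs in L1 males and 0.00463 to 0.00742% in L1 hermaphrodites, and no higher than 0.00461% in any L2 library. At L3 the male libraries lay at 0.0353 to 0.0390% and the hermaphrodite libraries at 0.00637 to 0.0106%. At L4 males reached 0.243 to 0.338% and hermaphrodites 0.125 to 0.141%. The YA males stood highest at 0.688 to 0.817%, and the YA hermaphrodite libraries were at 0.293, 0.114, 0.137 and 0.308%. The ranges of the sexes overlapped at L1 and L2 and were apart from L3 on. Of the sum the nspd genes took a mean of 0.495% of UMIs in YA males and 0.174% in YA hermaphrodites.

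**Figure D1:**
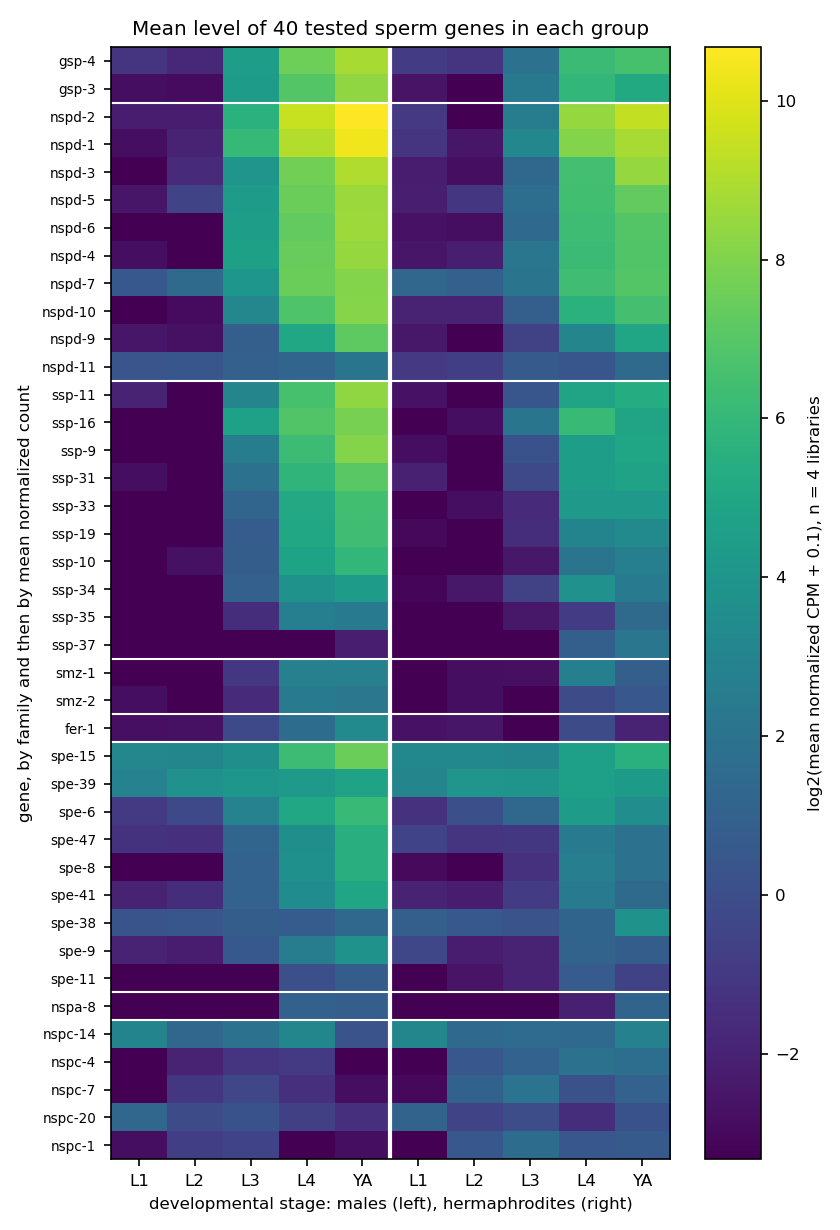
Mean level of 40 tested members in the 10 groups, on a log2 scale of normalized CPM with 0.1 added, with families divided by white lines. Most rows brighten at L3 in males, and in hermaphrodites many brighten at L3 and most at L4. In contrast spe-15, spe-39, spe-38, nspd-7 and nspd-11 show a level at every stage, and the nspc rows run differently.

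At L1 and L2 no member was called different between the sexes with edgeR at an adjusted p of 0.05, a log2 fold change of 1 and a mean normalized count of 5. At L1, 3.3% of the 8110 genes tested were called higher in males and 2.92% higher in hermaphrodites, and at L2 these shares were 0.481% and 0.21%. An unadjusted p under 0.05 was reached at L1 by 1 member higher in males and 4 higher in hermaphrodites, and at L2 by 1 and 3. DESeq2 called 1 member, nspd-11, higher in L1 males and 0 at L2. Members with a level at these stages included spe-15, a myosin VI that helps sort components into spermatids, and spe-39, a vesicle-trafficking gene used in many tissues. Others, such as nspc-14, are described below. spe-15 lay at 9.48, 9.54, 8.43 and 7.31 CPM in L1 males and 13.2, 7.11, 8.82 and 6.96 in L1 hermaphrodites. spe-39 lay at 6.46, 6.36, 8.94 and 7.12 CPM in L1 males and 11.2, 6.77, 7.75 and 7.44 in L1 hermaphrodites. The sexes overlapped for both genes. Transcripts of the peptide gene nspd-1 were nearly absent, at 0 to 0.172 CPM in L1 males and 0.238 to 0.423 in L1 hermaphrodites. Between L1 and L2, 3 members rose and 2 fell in males (10.9% and 8.13% of all genes), and 3 rose and 5 fell in hermaphrodites (14.7% and 15.4%). Those falling in both sexes were nspc-14 and nspc-20. nspd-5 rose in males, from 0, 0.318, 0 and 0 to 0.831, 0.685, 0.805 and 0.198 CPM, and nspd-2 fell in hermaphrodites, from 0.543, 0.339, 0.238 and 0.477 to 0, 0, 0 and 0 CPM, levels of a few counts, and the call of nspd-5 was lost without L1 male repeat 3 (2.54). The other rises in males were those of nspc-7, lost without L1 male repeat 1, 2, 3 or 4 or L2 male repeat 1, 2 or 4 (4.08 to 4.18), and nspd-7, lost without L1 male repeat 2, 3 or 4 or L2 male repeat 1 or 3 (1.01 to 1.14), and 1 to 2 rises were left on leaving out any 1 library of these groups. In hermaphrodites spe-6 rose from 0.302, 0.169, 0.238 and 0.477 to 1.06, 0.702, 0.952 and 1.24 CPM.

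At L3 many members rose in both sexes, and most of those called stood higher in males. Of the 55 members, 26 rose from L2 to L3 in males and 17 in hermaphrodites, against 11.2% and 7.99% of all genes tested. None fell in either sex with edgeR (1.73% and 2.31% of all genes), DESeq2 or at an unadjusted p under 0.05. The sets shared 16 genes, which were 16 of the 26 in males and 16 of the 17 in hermaphrodites. The median log2 change was 4.31 over the 41 tested members in males and 2.01 in hermaphrodites (all genes 0.09 and 0.10). At L3, 23 members were higher in males and 2, nspc-4 and nspc-7, were higher in hermaphrodites, beside 7.62% and 0.925% of all genes, and the median log2 difference was 2.22 (all genes 0.03).

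gsp-3 and gsp-4 encode the sperm forms of the catalytic subunit of protein phosphatase 1, which act in sperm meiosis and motility. gsp-3 had a total of 1 count over the 4 L2 male libraries and 0 over the L2 hermaphrodite libraries. At L3 it was at 20.6, 21.1, 19.6 and 19.0 CPM in males and 3.70, 7.24, 3.93 and 4.90 in hermaphrodites. gsp-4 was at 21.5, 22.3, 26.2 and 22.1 CPM in L3 males and 2.96, 4.51, 4.82 and 2.21 in L3 hermaphrodites. Every L3 male library lay above every hermaphrodite library for both genes. The log2 difference between the sexes was 2.01 ± 0.50 (SE) for gsp-3 and 2.64 ± 0.26 (SE) for gsp-4 (edgeR adjusted p = 0.00484 and 8.71e-10). gsp-3 had 422 counts in L3 males and 1 in L2 males, a ratio of 434 (95% counting interval 77.5 to 17197). In hermaphrodites the L3 level was 40.8-fold a floor of 3 counts over the L2 group, which held 0. The intervals here cover counting error only. A floor of 3 counts stands in for a group at 0, and the counting error of the higher group is left out of such values.

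The nspd genes, short peptides of group D of the nematode-specific family, were called higher in L3 males for 8 of 10 genes. nspd-1 was at 67.7, 65.4, 72.4 and 64.7 CPM in males and 8.15, 10.1, 11.6 and 7.35 in hermaphrodites. nspd-2 was at 50.9, 49.2, 47.6 and 48.2 CPM in males and 3.89, 5.63, 8.21 and 6.62 in hermaphrodites. The groups were far apart for both genes, and the log2 difference was 2.85 ± 0.23 (SE, adjusted p = 1.5e-11) for nspd-1 and 3.01 ± 0.26 (SE, adjusted p = 1.46e-10) for nspd-2 in edgeR. nspd-3 stood at 17.5, 16.3, 14.3 and 14.2 CPM in males and 0.741, 4.18, 3.75 and 1.72 in hermaphrodites, a log2 difference of 2.54 ± 0.36 (SE, adjusted p = 1.96e-06). For nspd-5 the male libraries held 23.1, 22, 23.4 and 17.3 CPM and the hermaphrodite libraries 3.15, 4.51, 3.39 and 1.96, and the difference was 2.69 ± 0.29 (SE, adjusted p = 5.51e-09). Each male library of nspd-3 and nspd-5 lay above each hermaphrodite library. nspd-4 had 21.9, 24.6, 26.8 and 24.5 CPM in males and 2.59, 6.12, 5.53 and 3.68 in hermaphrodites (log2 difference 2.43). nspd-6 had 26.4, 22.6, 23.4 and 21.0 CPM in males and 2.22, 3.22, 4.82 and 0.490 in hermaphrodites (log2 difference 3.06). nspd-7 was already counted in every L2 male library, at 2.18 to 3.35 CPM. At L3 nspd-7 was at 16.4, 15.4, 20.1 and 14 CPM in males and 2.78, 4.18, 6.60 and 2.94 in hermaphrodites (log2 difference 1.98). nspd-9 was at 2.09, 1.71, 1.92 and 1.55 CPM in males and 0.556, 0.483, 0.892 and 0.245 in hermaphrodites (log2 difference 1.67). nspd-10 (log2 difference 2.22, adjusted p = 0.0892) and nspd-11 (0.38) were not called. In a fit of the L3 libraries alone nspd-10 was called, with a difference of 2.21 and an adjusted p of 1.57e-04.

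Of the ssp genes, which encode small MSP-domain proteins, 6 of 10 were called higher in L3 males. ssp-16 was at 22.5, 23.7, 28.7 and 28.7 CPM in L3 males and 4.45, 3.22, 4.46 and 4.66 in hermaphrodites. ssp-11 was at 10.9, 7.72, 6.82 and 6.80 CPM in males and 0.370, 2.57, 1.61 and 0.490 in hermaphrodites. The libraries of the sexes did not overlap, and the log2 difference was 2.63 ± 0.50 (SE, adjusted p = 2.89e-04) for ssp-16 and 2.59 ± 0.64 (SE, adjusted p = 0.00478) for ssp-11 in edgeR. ssp-9 stood at 4.78, 6.86, 6.65 and 5.05 CPM in males and 1.11, 1.13, 1.25 and 0.735 in hermaphrodites (log2 difference 2.41). ssp-31 stood at 2.84, 3.43, 4.37 and 3.69 CPM in males and 0.370, 1.13, 1.07 and 0.490 in hermaphrodites (log2 difference 2.15). ssp-10 and ssp-19 were called from low levels. ssp-10 had 1.49, 1.14, 1.75 and 2.14 CPM in males and 0.185, 0.161, 0 and 0 in hermaphrodites (log2 difference 3.85), and ssp-19 had 0.746, 2.00, 1.92 and 1.55 and 0, 0.644, 0.357 and 0 (2.35, adjusted p = 0.0487). The call of ssp-19 was lost without L3 hermaphrodite repeat 1, 3 or 4 or L3 male repeat 2, 3 or 4 (1.95 to 2.48). The other ssp genes were not called at L3. Among them ssp-35 was at 0 to 0.857 CPM in males, and ssp-37 had 0 counts in both sexes.

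Among the spe genes 6 of 10 tested were called higher in L3 males, and they act at several steps of sperm biology. spe-6, a casein kinase 1 needed to assemble MSP in spermatocytes, was at 7.91, 7.72, 6.47 and 7.57 CPM in males and 2.59, 1.93, 3.75 and 1.47 in hermaphrodites (log2 difference 1.58 ± 0.32 SE, adjusted p = 4.70e-04). Each male library of spe-6 lay above each hermaphrodite library. spe-8, a tyrosine kinase of sperm activation, had 1.79, 2.00, 2.27 and 1.94 CPM in males and 0.185, 0, 0.535 and 0.490 in hermaphrodites (log2 difference 2.72). spe-47, an MSP-domain protein, had 2.24, 2.29, 1.75 and 2.91 CPM in males and 0.185, 0.805, 0.535 and 0 in hermaphrodites (log2 difference 2.4). The sexes were apart for both genes, as they were for the genes of fertilization. spe-9, an EGF-repeat membrane protein that sperm need to fuse with the oocyte, had 1.34, 0.572, 1.05 and 2.33 CPM in males and 0, 0, 0.357 and 0.245 in hermaphrodites (log2 difference 3.07). spe-41, a TRP channel of the same step, had 1.49, 2.57, 2.8 and 1.17 CPM in males and 0.370, 0.322, 0.892 and 0.245 in hermaphrodites (log2 difference 2.03). The call of spe-41 was lost without L3 hermaphrodite repeat 2 or L3 male repeat 3 (1.79 to 1.87). fer-1, a ferlin required for fusion of the membranous organelles, had 0.448, 0.286, 0.875 and 1.36 CPM in L3 males and 0 in every L3 hermaphrodite library. With 16 counts against 0, the male level was 5.39-fold the floor of 3 counts in hermaphrodites, and edgeR gave an adjusted p of 2.22e-04.

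From L3 to L4, 31 members rose in males and 29 in hermaphrodites, beside 15.6% and 15.9% of all genes tested. The median log2 change was 2.81 in males and 4.12 in hermaphrodites (all genes -0.00 and 0.09). No member fell in males with edgeR or DESeq2, 1 had an unadjusted p under 0.05 in that direction, and nspc-7 fell in hermaphrodites, beside 9.88% and 7.71% of all genes. The fall of nspc-7 was lost without L3 hermaphrodite repeat 1, 2 or 3 (-1.97 to -1.62). The rise differed between the sexes for 8 members (3.63% of all genes more positive in males and 6.02% more negative). Those with a smaller rise in males included gsp-4, nspd-1, nspd-2, nspd-4, nspd-5 and nspd-6, each of which L3 males held at a higher level than L3 hermaphrodites. The call of nspd-4 was lost on leaving out any of 11 libraries, with values of -1.24 to -1.04. For nspd-1 the log2 rise was 2.98 ± 0.22 (SE) in males and 4.86 ± 0.24 (SE) in hermaphrodites, a difference of -1.88 ± 0.30 (SE, adjusted p = 3.37e-05) in edgeR. For spe-15 the male rise was the larger, 2.63 ± 0.22 against 1.5 ± 0.22, and the difference was 1.13 ± 0.31 (SE, adjusted p = 0.0151).

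At L4, 21 members were higher in males and 1, nspc-4, in hermaphrodites, against 13.8% and 14.1% of all genes, and the median log2 difference of the tested members was 1.07 (all genes 0.05). gsp-4 was at 206, 182, 195 and 179 CPM in L4 males and 92.9, 62.5, 61.8 and 76.7 in L4 hermaphrodites. gsp-3 was at 118, 123, 129.6 and 119 CPM in males and 68.6, 58.0, 60.0 and 60.5 in hermaphrodites. Both genes were higher in every male library, by 2.59-fold for gsp-4 and 1.98-fold for gsp-3. The call was made for gsp-4 (log2 difference 1.37 ± 0.22 SE, adjusted p = 6.10e-06) and not for gsp-3 (log2 difference 0.99 ± 0.44 SE, adjusted p = 0.0728) in edgeR. In a fit of the L4 libraries alone gsp-3 had a log2 difference of 1.02 and an adjusted p of 5.35e-06 and was called. nspd-1 was at 615, 427, 526 and 569 CPM in males and 325, 296, 206.9 and 261 in hermaphrodites, and nspd-2 at 912, 569, 719 and 713 and 416, 416, 237 and 319.9. For both the groups were apart, but the log2 difference of nspd-1, 0.97, fell just short of the limit of 1 and that of nspd-2, 1.07, just passed it. In the nspd family 6 of 10 genes were called higher in males, with differences of 0.77 to 2.05 over the 10. Several of these calls stood near the limit. That of nspd-2 was lost without L4 hermaphrodite repeat 3 or L4 male repeat 1 (0.92 to 0.95), that of nspd-4 without L4 male repeat 1 (0.96), that of nspd-5 without L4 hermaphrodite repeat 3 or L4 male repeat 1 (0.95) and that of nspd-7 without L4 male repeat 1 (0.98). nspd-1 was called without L4 hermaphrodite repeat 1 or 2 or L4 male repeat 2 (1.02 to 1.12), and nspd-6 without L4 hermaphrodite repeat 1 or 2 or L4 male repeat 2 or 3 (1.01 to 1.13).

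The largest log2 differences among the members called higher in L4 males were those of ssp-35, ssp-10 and smz-2. ssp-35 was at 14.7, 2.20, 2.8 and 6.40 CPM in L4 males and 0.633, 0.377, 0.165 and 0.683 in L4 hermaphrodites, and the log2 difference was 3.70 ± 0.73 (SE, adjusted p = 2.52e-04). Its male libraries varied among themselves, with repeat 1 the highest, but all lay above the hermaphrodite libraries. ssp-10 was at 33.5, 16.1, 21.4 and 39.3 CPM in males and 2.53, 4.14, 5.44 and 4.27 in hermaphrodites (log2 difference 2.73 ± 0.36 SE, adjusted p = 5.69e-07). smz-2, a PDZ-domain gene of sperm, was at 9.39, 3.30, 3.26 and 6.40 CPM in males and 0.844, 0.377, 0.824 and 1.37 in hermaphrodites (log2 difference 2.57 ± 0.53 SE, adjusted p = 3.39e-04). Its male libraries lay above its hermaphrodite libraries. smz-1, of the same family, was at 10.3, 4.22, 4.66 and 8.07 CPM in males and 1.06, 1.51, 15.2 and 8.2 in hermaphrodites, ranges that overlapped. spe-15 rose from L3 in both sexes and stood at 68.9, 70.4, 76.0 and 89.9 CPM in males and 29.3, 23.0, 22.6 and 20.8 in hermaphrodites (log2 difference 1.67 ± 0.21 SE, adjusted p = 8.37e-08). Of the spe genes called at L4, spe-41 lost its call without L4 hermaphrodite repeat 1 or 4 or L4 male repeat 4 (0.84 to 1.02) and spe-8 without L4 hermaphrodite repeat 1, 2 or 4 or L4 male repeat 2, 3 or 4 (0.91 to 1.09). nspa-8, a short peptide gene, was counted in L4 males (4.70, 0.733, 0.699 and 1.67 CPM), with 28 counts against 3 in L4 hermaphrodites, a ratio of 10.9 (95% counting interval 3.37 to 56.1), and its mean normalized count of 3.17 kept it below the limit for a call. nspa-5, of the same family, was at 0 in L4 hermaphrodites and at 0.328, 0.574, 0.173 and 1.99 CPM in YA males. nspe-7, the only gene of nspe, had at most 1.25 CPM in any library and was not tested.

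**Figure D2:**
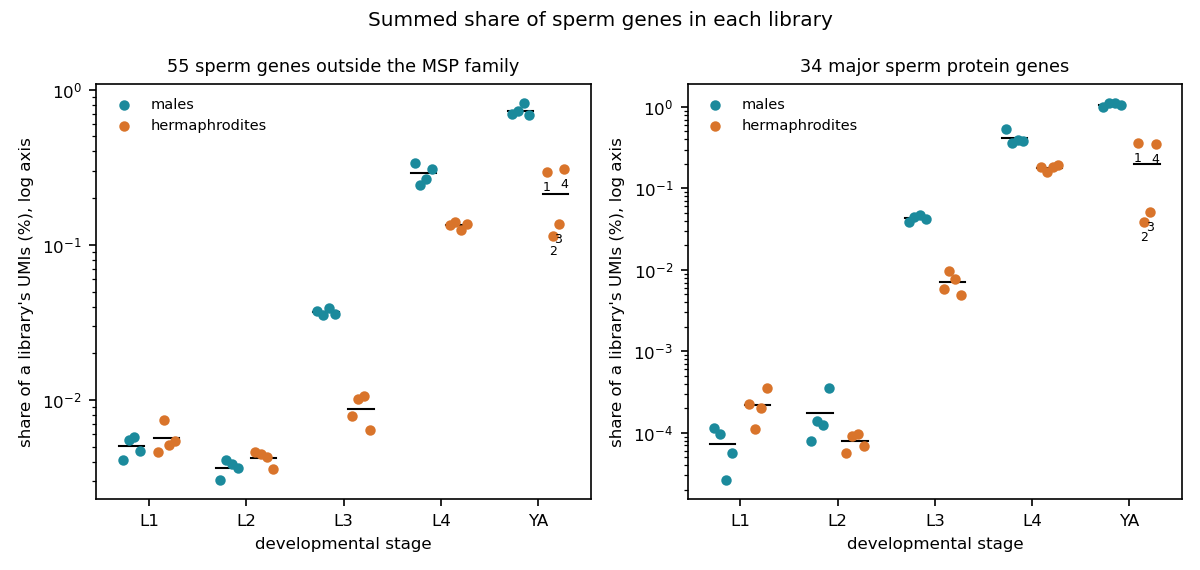
Share of each library's UMIs taken by the 55 members (left) and by the 34 MSP genes (right), in percent on a log axis, by stage and sex, with a line at the mean of 4 libraries and repeat numbers at the YA hermaphrodite libraries. Males lie above hermaphrodites from L3 on, and YA hermaphrodite repeats 1 and 4 lie above repeats 2 and 3.

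The YA males held the highest summed share. From L4 to YA, 22 members rose and 2 fell in males, beside 10.0% and 12.5% of all genes, and the median log2 change was 1.17 (all genes -0.05). The 2 that fell were nspc-4 and nspc-14. At YA, 28 members were higher in males and 5 in hermaphrodites, beside 22.3% and 21.8% of all genes, with a median log2 difference of 1.79 (all genes -0.00). Without YA hermaphrodite libraries 1 and 4 the counts were 31 and 2, beside 26.4% and 20.2% of all genes, and the median of all genes was then 0.38. The same 28 members were called higher in males in both fits, and nspd-3, spe-39 and ssp-35 were added. nspc-4 and nspc-14 remained called higher in hermaphrodites, and nspc-7, nspc-20 and spe-38 were not called without those libraries.

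From L4 to YA the members in hermaphrodites did not move together. With all 4 libraries 7 of the 41 tested members rose and 6 fell, beside 20.9% and 23.6% of all genes. In neither direction did the share of members exceed that of all genes. Without libraries 1 and 4, 5 rose and 15 fell, beside 19.0% and 28.6%, and the median of all genes was -0.29. Of the first counts, 3 rises and 5 falls were called in both fits. Among the members that fell with all libraries were fer-1, smz-1, spe-41, ssp-16 and ssp-34, and spe-41 was the exception without repeats 1 and 4. smz-1 was at 3.91, 0.308, 0 and 3.01 CPM, and its fall of -1.92 was lost without L4 hermaphrodite repeat 3 or YA hermaphrodite repeat 2 or 3 (-1.60 to -1.13). ssp-34 was at 8.61, 0.616, 2.76 and 9.59 CPM, and its fall of -1.33 was lost without YA hermaphrodite repeat 2 or 3 (-1.14 to -0.99). In normalized CPM the 4 YA hermaphrodite libraries lay near each other for gsp-4 and for most nspd genes. gsp-4 was at 73.2, 103, 120.0 and 91.0 CPM in the 4 YA hermaphrodite libraries, and nspd-1 at 458, 409, 496 and 458. nspd-2 was at 617, 611, 853 and 654 CPM. On this scale repeats 2 and 3 did not stand apart in these genes. Every YA hermaphrodite library lay above the L4 hermaphrodite libraries for nspd-1 and nspd-2, whereas the stages overlapped for gsp-4. This rests on the scaling: nspd-1 had 1170, 1328, 1617 and 1671 counts in YA libraries of 2479432, 5450105, 6096830 and 3533092 UMIs. Per UMI nspd-1 was lower in repeats 2 and 3 than in 1 and 4, and repeat 2 lay within the range of the L4 hermaphrodite libraries. The log2 changes from L4, 0.40 for gsp-4, 0.74 for nspd-1 and 0.98 for nspd-2, were not called, and that of nspd-2 was called without repeats 1 and 4 (1.06). spe-15 was at 25.0, 54.2, 66.0 and 40.8 CPM, lowest in repeat 1, and its change was 0.96 with all libraries and, called, 1.31 without repeats 1 and 4.

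Other members were high in repeats 1 and 4 and low in repeats 2 and 3. gsp-3 was at 72.4, 2.47, 5.22 and 63.8 CPM, so that repeats 2 and 3 lay below every L4 hermaphrodite library. Its log2 change from L4 was -0.78 ± 0.45 (SE, adjusted p = 0.140) with all libraries and -4.01 (adjusted p = 5.63e-15) without repeats 1 and 4, both from edgeR. nspd-10 was at 195, 0.308, 0.921 and 175 CPM, unlike the other nspd genes. Its change from L4 was 0.92 ± 0.65 (SE, adjusted p = 0.233) with all libraries and -6.28 (adjusted p = 9.84e-16) without repeats 1 and 4, the opposite direction. ssp-16 was at 52.4, 3.70, 4.60 and 53.4 CPM, with changes of -1.3 and -4.09. ssp-16 fell from L4 in both fits, and its fall was lost without YA hermaphrodite repeat 2 or 3 (-0.97). The count ratio of gsp-3 to gsp-4 was 0.739 to 0.971 in the L4 hermaphrodite libraries, 0.634 to 0.750 in YA males and 0.989, 0.024, 0.0435 and 0.702 in the YA hermaphrodite libraries. The ratio of nspd-10 to nspd-1 was 0.198 to 0.228 in YA males and 0.426, 0.000753, 0.00186 and 0.382 in YA hermaphrodites. Neither ratio depends on the scaling of the libraries. The seminal fluid, male neuron and MSP shares given above were high in the same repeats 1 and 4, and their part in these levels was not tested.

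**Figure D3:**
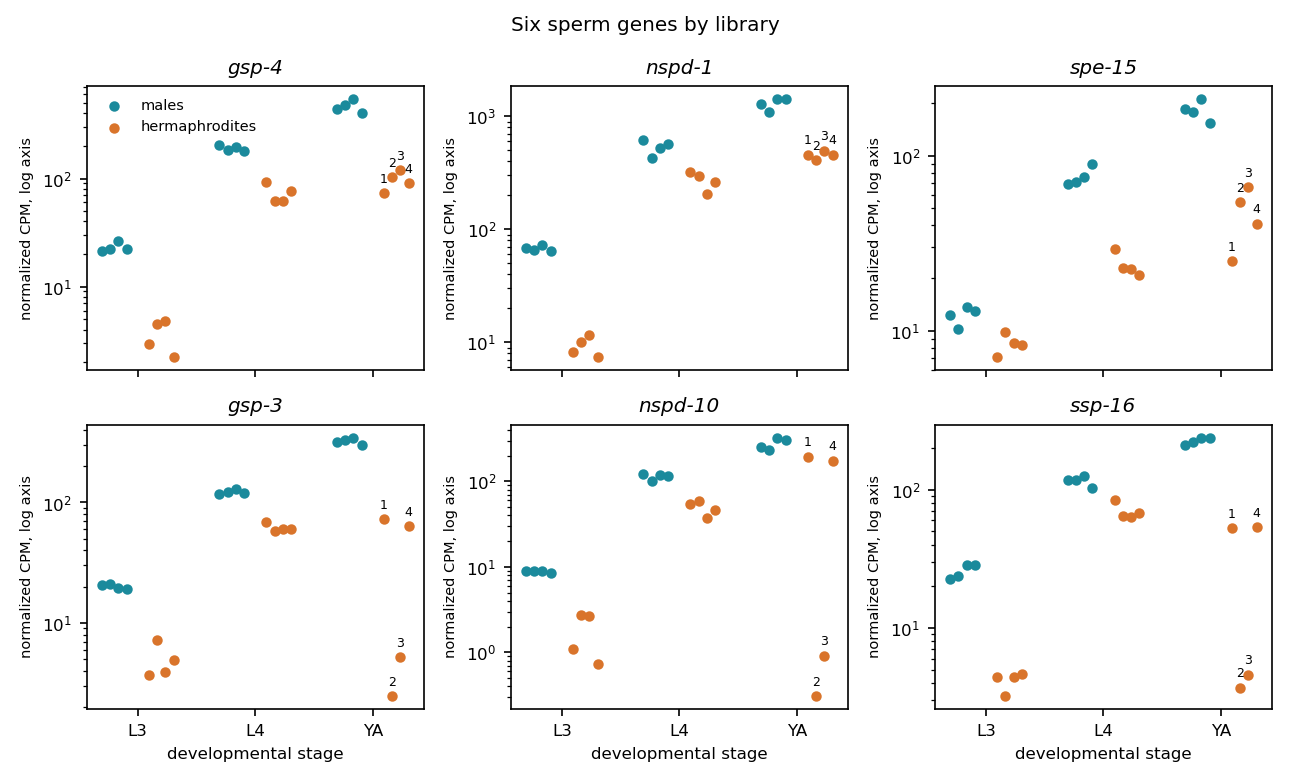
Normalized CPM, on a log axis, of gsp-4, nspd-1, spe-15, gsp-3, nspd-10 and ssp-16 in each L3, L4 and YA library, with repeat numbers at the YA hermaphrodite libraries. In the upper row the YA hermaphrodite libraries lie close together for gsp-4 and nspd-1 and spread more for spe-15, with repeat 1 the lowest, and in the lower row repeats 2 and 3 lie far below repeats 1 and 4.

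The ssp genes were low in repeats 2 and 3 as well. ssp-9 was at 53.6, 3.70, 6.45 and 61.1 CPM and ssp-11 at 67.7, 5.24, 5.83 and 84.9 in YA hermaphrodites. ssp-31 was at 50.5, 6.78, 8.90 and 39.2 CPM, and ssp-33 was not found in repeat 2, at 38.3, 0, 1.23 and 32.3. In these 4 genes the change from L4 was 0.44, 0.49, 0.25 and -0.02 with all libraries and -2.19, -2.41, -1.49 and -4.84 without repeats 1 and 4, and only the second set was called. In YA males their levels were 255 to 285, 296 to 341, 122 to 149 and 74.5 to 102 CPM. All 10 tested ssp genes but ssp-35 and ssp-37 were called higher in YA males, with log2 differences of 1.95 for ssp-34 to 3.22 for ssp-10, and of 3.61 for ssp-34 to 7.12 for ssp-33 over the same genes without repeats 1 and 4.

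Among the spe genes called higher in YA males than in YA hermaphrodites were spe-47, spe-8, spe-9, spe-41 and spe-6, while spe-38 was called higher in hermaphrodites. spe-47 was at 46.8, 41.8, 45.8 and 42.0 CPM in YA males and 3.13, 2.77, 3.99 and 4.38 in YA hermaphrodites. Its log2 difference was 3.61 ± 0.29 (SE, edgeR adjusted p = 3.49e-13), and its 4 hermaphrodite libraries did not split in normalized CPM. spe-8 was at 41.3, 44.8, 49.99 and 37.1 CPM in males and 6.65, 0.616, 0.921 and 6.30 in hermaphrodites (log2 difference 3.59 ± 0.46 SE, adjusted p = 8.49e-08), with repeats 2 and 3 low. spe-9 was at 14.9, 13.1, 19.5 and 10.9 CPM in males and 0.391, 2.16, 3.07 and 1.10 in hermaphrodites (log2 difference 3.07 ± 0.50 SE, adjusted p = 2.00e-06), with repeat 3 the highest of the latter. spe-41 was at 33.0, 27.9, 36.3 and 25.0 CPM in males and 4.30, 3.70, 1.53 and 1.37 in hermaphrodites, a difference of 3.51 ± 0.43 (SE, adjusted p = 6.37e-09). For all 4 genes every male library lay above every hermaphrodite library. spe-6 was at 76.6, 74.2, 78.7 and 61.2 CPM in YA males and 19.6, 7.4, 5.83 and 13.2 in YA hermaphrodites (log2 difference 2.67 ± 0.29 SE, adjusted p = 5.38e-10). Without repeats 1 and 4 the differences of spe-47, spe-8, spe-9, spe-41 and spe-6 were 3.70, 5.78, 2.48, 3.54 and 3.46, and each was called. fer-1 was at 9.52, 11.3, 10.0 and 7.96 CPM in males and 0.391, 0, 0 and 0.274 in hermaphrodites. Its 239 and 2 counts gave a ratio of 62.3 (95% counting interval 17.1 to 518). The trafficking gene spe-39 was at 26.1, 30.4, 25.4 and 23.5 CPM in YA males and 23.5, 8.63, 7.67 and 37.5 in YA hermaphrodites. It was not called with all libraries (log2 difference 0.44) and was called without repeats 1 and 4 (1.70, adjusted p = 2.14e-08).

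The change from L4 to YA itself differed between the sexes for 14 of the 41 tested members. It was more positive in males for 9 and more negative for 5, beside 17.2% and 16.4% of all genes. The share of members called thus lay near that of all genes. Without repeats 1 and 4 the counts were 18 and 3, beside 24.1% and 18.8%, and the median of all genes was 0.32. Among the 9 were fer-1, gsp-3, spe-6, spe-8, spe-41, spe-47, ssp-16 and ssp-34, and all 9 were called in both fits. The 5 were nspc-4, nspc-14, nspc-20, spe-38 and ssp-35, of which spe-38 and ssp-35 were not called without repeats 1 and 4. spe-47 had a log2 rise of 1.84 ± 0.25 (SE) in males beside -0.55 ± 0.30 (SE) in hermaphrodites, a difference of 2.38 ± 0.39 (SE, adjusted p = 9.70e-06) in edgeR and 2.48 without repeats 1 and 4. For gsp-4 the changes were 1.29 ± 0.22 and 0.40 ± 0.22 and the difference, 0.90 ± 0.31 (SE, adjusted p = 0.0198), was not called. fer-1 and spe-41 rose in males and fell in hermaphrodites with all libraries. For spe-41 the changes were 1.46 and -1.02, and the fall in hermaphrodites was not called without repeats 1 and 4 (-1.05, adjusted p = 0.0822). That fall was also lost without L4 hermaphrodite repeat 1, 2 or 3 or YA hermaphrodite repeat 3 or 4 (-1.06 to -0.79). ssp-34 lost its difference between the sexes without YA hermaphrodite repeat 3 or YA male repeat 2 (1.52 to 1.65).

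**Figure D4:**
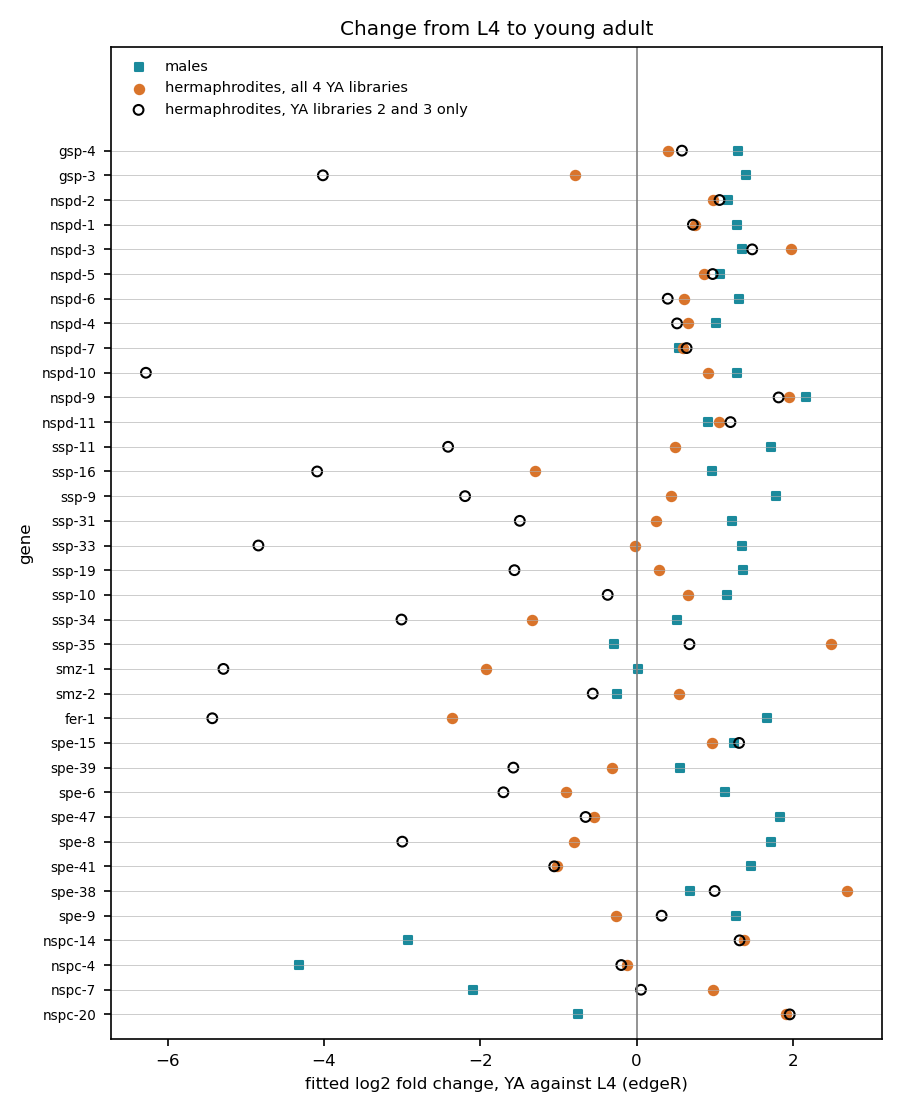
Fitted log2 fold change from L4 to YA of 36 members with a mean normalized count of at least 5, for males (squares), hermaphrodites with all 4 YA libraries (filled circles) and hermaphrodites with YA libraries 2 and 3 only (open circles). Open and filled circles lie close together for most nspd genes and far apart for gsp-3, nspd-10, ssp-33, smz-1 and fer-1.

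The members that rose in hermaphrodites from L4 to YA with all libraries were nspd-3, nspd-9, nspd-11, spe-38, ssp-35, nspc-14 and nspc-20, of which nspd-3, nspd-9 and nspd-11 were also called without repeats 1 and 4. That fit rests on YA repeats 2 and 3, which the scaling raised. With all libraries and no TMM factor, 4 members rose. nspd-9 was at 8.65, 11.7, 6.76 and 5.47 CPM in L4 and 33.3, 25.3, 30.7 and 34 in YA hermaphrodites, a log2 change of 1.95 ± 0.26 (SE, adjusted p = 5.64e-08). nspd-3 was at 91.8, 124, 60.8 and 77.0 CPM in L4 and 386, 184, 311 and 507 in YA hermaphrodites (log2 change 1.98 ± 0.30 SE, adjusted p = 1.04e-06). Both rose in males too, by 2.17 and 1.34, and both rises in hermaphrodites were called without repeats 1 and 4 (1.82 and 1.48). nspd-11 was at 1.69, 0.377, 1.48 and 1.37 CPM in L4 and 1.96, 1.54, 4.60 and 2.74 in YA hermaphrodites (log2 change 1.06 ± 0.43 SE, adjusted p = 0.0365). The L4 and YA libraries of nspd-11 overlapped, and those of nspd-3 and nspd-9 did not. The rise of nspd-11 was lost without L4 hermaphrodite repeat 2, 3 or 4 or YA hermaphrodite repeat 3 or 4 (0.66 to 1.11). spe-38, a membrane protein of sperm needed for fertilization, was at 2.53, 2.64, 2.31 and 1.20 CPM in L4 and 25.0, 3.70, 4.91 and 21.9 in YA hermaphrodites, against 2.46, 1.44, 3.46 and 2.90 in YA males. It was the only member outside nspc that was called higher in YA hermaphrodites than in YA males (log2 difference -2.43 ± 0.44 SE, adjusted p = 9.96e-06). Repeats 1 and 4 were its high libraries, and without them the difference was -0.74 (adjusted p = 0.146) and not called. spe-38 (I, 10964472 to 10966382, minus strand) overlaps impt-1 on the same strand, so reads near that end of the genes could belong to either. ssp-35 rose in hermaphrodites from 0.633, 0.377, 0.165 and 0.683 to 5.09, 0.616, 0.921 and 4.38 CPM (log2 change 2.48 ± 0.79 SE, adjusted p = 0.00910), with repeats 1 and 4 the high libraries, and without them its change was 0.68 (adjusted p = 0.614).

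ssp-37 ran against the rest of its family. It had 0 counts in every library of both sexes from L1 to L3 and in every L4 male library. In L4 hermaphrodites it was at 2.11, 2.26, 1.15 and 1.71 CPM, 9.41-fold the floor of 3 counts in males (33 counts against 0). In YA hermaphrodites it was at 7.04, 0.308, 3.38 and 7.12 CPM and in YA males at 0.164, 0.144, 0 and 0.181, a count ratio of 35.8 (95% counting interval 11.6 to 179). Each hermaphrodite library lay above each male library at both stages, with repeat 2 the lowest at YA. Its mean normalized count of 3.31 kept it below the limit for a call, and edgeR gave adjusted p = 0.00129 at L4 and 4.77e-05 at YA. Unlike the other placed ssp genes it has 2 exons (I, 12561040 to 12561560, minus strand).

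The nspc genes, peptides of group C of the nematode-specific family, ran differently from the other families. They are members by name only, and a role in sperm was not tested for them here. All 10 lie on X in 3 clusters: nspc-1, nspc-3, nspc-4 and nspc-7 between 8534672 and 8542283, nspc-9, nspc-13 and nspc-14 between 12342946 and 12359057, and nspc-16, nspc-17 and nspc-20 between 14523575 and 14530207. The 5 tested were nspc-1, nspc-4 and nspc-7 of the first cluster, nspc-14 of the second and nspc-20 of the third. nspc-4 had 0 counts in all L1 libraries. At L3 it was at 0.448, 0.572, 0 and 0.388 CPM in males and 2.04, 1.29, 2.68 and 2.21 in hermaphrodites, and at L4 at 0.626, 0.550, 0.233 and 0.278 and 0.633, 5.65, 4.12 and 3.93. In YA males it had 0 counts and in YA hermaphrodites 3.13, 3.70, 2.46 and 3.56 CPM, 26.2-fold the floor of 3 counts in males. The hermaphrodite libraries lay above the male libraries at L3, L4 and YA, with the lowest L4 hermaphrodite library close to the highest L4 male library, and the log2 difference was -2.53 ± 0.66 (SE, adjusted p = 0.00864) at L3 and -2.99 ± 0.65 (SE, adjusted p = 5.38e-04) at L4. nspc-7 was at 1.19, 0.286, 0.700 and 0.583 CPM in L3 males and 6.30, 3.70, 4.28 and 1.47 in L3 hermaphrodites (log2 difference -2.4 ± 0.58 SE, adjusted p = 0.00359). At YA its 26 counts in hermaphrodites against 1 in males gave a ratio of 49.9 (95% counting interval 8.19 to 2044), with 0 counts in hermaphrodite repeat 3. Its call at L3 was lost without L3 hermaphrodite repeat 1, 2 or 3 (-2.44 to -2.10), and without YA hermaphrodite repeats 1 and 4 nspc-7 was not called at YA, with a log2 difference of -4.12 (adjusted p = 0.00317). nspc-1 showed the same direction below the limit on mean counts, at 0.597, 0.857, 0.175 and 0.777 CPM in L3 males and 4.08, 2.41, 3.21 and 2.45 in L3 hermaphrodites. Both nspc-4 and nspc-7 were near 0 at L1 and rose from L1 to L2 in hermaphrodites. The L2 level of nspc-4 was 20.03-fold the floor of 3 counts at L1, and nspc-7 rose by a ratio of 93.0 (95% counting interval 15.9 to 3751).

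The tested genes of the other clusters, nspc-14 and nspc-20, were counted in every L1 library. nspc-14 was at 6.03, 8.59, 8.6 and 7.87 CPM in L1 males and 3.2, 12.9, 7.63 and 10.6 in L1 hermaphrodites, and nspc-20 at 2.15, 3.18, 2.58 and 1.69 and 1.33, 3.05, 2.03 and 1.91. Both fell from L1 to L2, nspc-14 by 1.73 on the log2 scale in males and 1.65 in hermaphrodites, nspc-20 by 1.55 and 1.70. The falls of nspc-20 were lost without L1 male repeat 2 or 3 or L2 male repeat 3 or 4 (-1.48 to -1.35) and without L1 hermaphrodite repeat 1, 2, 3 or 4 (-1.87 to -1.45). At L4 nspc-14 was at 17.5, 3.48, 4.90 and 8.07 CPM in males and 1.27, 2.26, 2.8 and 4.10 in hermaphrodites, called higher in males (log2 difference 1.63 ± 0.50 SE, adjusted p = 0.00930) although the lowest male library lay below the highest hermaphrodite library, and the call was lost without L4 male repeat 1 (1.02). At YA the order turned, with 0.820, 1.01, 1.21 and 1.27 CPM in males and 5.09, 7.4, 6.14 and 9.04 in hermaphrodites, groups that were apart (log2 difference -2.68 ± 0.55 SE, adjusted p = 7.51e-05). Without repeats 1 and 4 this difference was -2.63 and still called. Its change from L4 to YA differed between the sexes by -4.31 ± 0.75 (SE, adjusted p = 2.41e-05). The rise of nspc-14 in hermaphrodites (1.38) was lost without L4 hermaphrodite repeat 1 or YA hermaphrodite repeat 4 (1.12 to 1.22) and without YA repeats 1 and 4 (1.32, adjusted p = 0.0619). That of nspc-20 (1.91) was lost without L4 hermaphrodite repeat 1 or 4 or YA hermaphrodite repeat 3 (1.42 to 1.79) and without YA repeats 1 and 4 (1.96, adjusted p = 0.0527). nspc-20 was at 0, 0.377, 0.659 and 0 CPM in L4 hermaphrodites, at 0.492, 0.287, 0.346 and 0 CPM in YA males and 1.17, 0.925, 1.23 and 0.822 in YA hermaphrodites (log2 difference -1.77 ± 0.68 SE, adjusted p = 0.0259), and without repeats 1 and 4 this was -1.83 (adjusted p = 0.0586). The call with all libraries was lost without YA hermaphrodite repeat 3 or YA male repeat 2 or 4 (-1.75 to -1.39). For these X-linked genes too the males carried dpy-28(y1) and him-8(e1489) and the hermaphrodites did not.

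**Figure D5:**
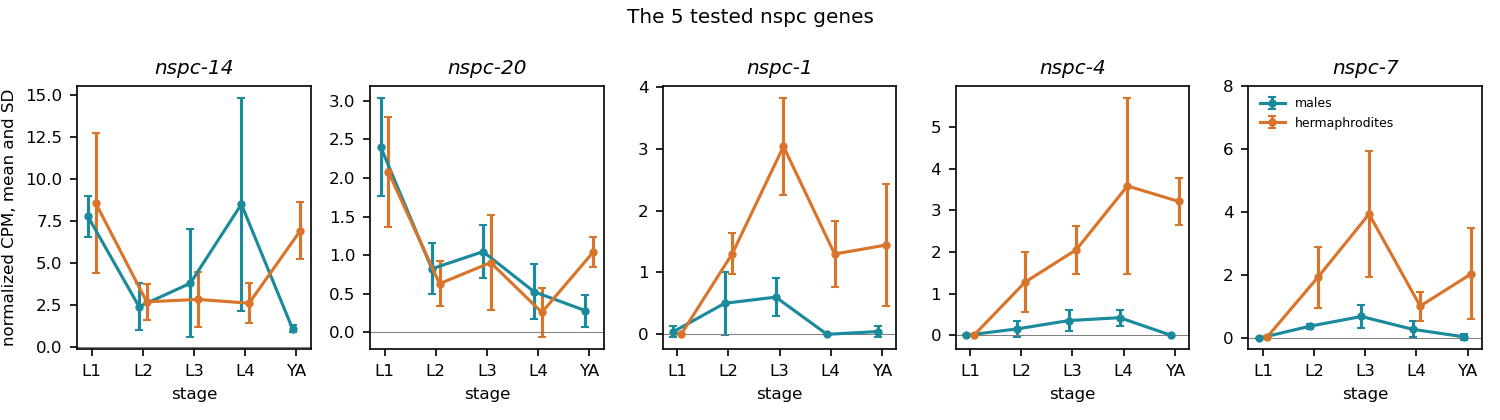
Mean normalized CPM with SD (n = 4 libraries) of the 5 tested nspc genes by stage in males and hermaphrodites. nspc-14 and nspc-20 are present at L1 and lower at L2. nspc-1, nspc-4 and nspc-7 are near 0 at L1 and have higher means in hermaphrodites from L2 on, 3.04, 2.05 and 3.94 CPM in L3 hermaphrodites. Libraries of the sexes overlap for nspc-1 and nspc-4 at L2 and for nspc-7 at L4 and YA.

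The 14 members that were not tested had few counts over the 40 libraries. Among them were spe-4, a presenilin, with 0.362 to 1.21 CPM in YA males and 0 to 0.782 in YA hermaphrodites, and spe-44, which activates sperm genes, with 0.346 to 0.724 and 0 to 1.17 CPM. spe-12 and spe-19 act in sperm activation with spe-8. spe-19 was found at 0.422, 0.377, 1.81 and 1.54 CPM in L4 hermaphrodites and at 0 in the 4 YA hermaphrodite libraries. With 23 counts against 0, its L4 level was 5.04-fold the floor of 3 counts at YA. spe-12 was found at 0.492, 0.431, 1.56 and 0.362 CPM in YA males. These members were not part of the fit, and 3 counts over a group correspond to 0.0635 to 0.236 CPM. The paternal-effect gene spe-11 passed the filter, at 0, 1.51, 2.14 and 2.39 CPM in L4 hermaphrodites and 0.939, 0.550, 0.699 and 1.67 in L4 males, ranges that overlapped.

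Other sperm and germline lists were set beside the members. Of the 34 MSP genes 31 were tested, and 20, 14 and 30 were higher in males at L3, L4 and YA, with median log2 differences of 2.46, 1.21 and 2.68. msp-64 was at 1629, 1522, 1859 and 2072 CPM in YA males and 554, 263, 358 and 562 in YA hermaphrodites. msp-31 was at 646, 37.6, 42.0 and 549.6 CPM in YA hermaphrodites, low in the same repeats 2 and 3 as gsp-3. From L4 to YA, with all 4 YA hermaphrodite libraries, 18 MSP genes rose in males, and 2 rose and 4 fell in hermaphrodites. Of all genes 10.0% rose in males, and 20.9% rose and 23.6% fell in hermaphrodites. For these lists, 7.62%, 13.8% and 22.3% of all genes were higher in males at L3, L4 and YA. In hermaphrodites 14.1% and 21.8% were higher at L4 and YA. Of 3 further tested genes with a known sperm role, msd-4, an MSP-domain gene, was at 215.2, 12.6, 14.1 and 214.0 CPM in YA hermaphrodites. Regulators of sperm fate (13 of 19 tested) moved in both directions, with 2 called higher in males and 4 higher in hermaphrodites at L4 and 5 and 6 at YA. gld-1, an RNA-binding regulator of germ cell fate, was at 59.1, 270, 271 and 96.2 CPM in YA hermaphrodites, highest in repeats 2 and 3. Of the 25 tested oocyte and eggshell genes, 21 were higher in hermaphrodites at L4 and 23 at YA. Within YA hermaphrodites the eggshell gene cpg-2 was at 1448, 5433, 5563 and 2338 CPM, again highest in repeats 2 and 3. The scaling raised repeats 2 and 3, so part of these gaps of gld-1 and cpg-2 rests on it.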

How the data were processed

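Whole animals were lysed and bulk MARS-seq libraries, which tag the 3′ end of each transcript with a unique molecular identifier (UMI), were sequenced. Per the labels and the study's methods, the authors trimmed reads with cutadapt, aligned them to WBcel235 with STAR 2.4.2a, and counted UMIs per gene with HTSeq, and the deposited table holds raw UMI counts for each library. Strand use was not given in the sources used here, nor was the annotation release. The authors also deposited batch-corrected log2 values (ComBat), not used for any result. For 5402 of 5402 genes with 0 counts in several libraries of a repeat number, the ComBat values of these libraries were equal (tolerance 1e-06). Values were not compared between repeat numbers, so which batches the correction used was not tested. Columns with the authors' own fold changes and p-values were not used.

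The members and gene lists were chosen with earlier results of these data known. Counts of all 40 libraries entered 1 quasi-likelihood fit in edgeR 4.0.16 (R 4.3.3), with a mean for each of the 10 groups, after TMM scaling and filterByExpr (minimum count 10, minimum total 15), which kept 8110 genes (common dispersion 0.0901). There were 15 contrasts, each adjusted by Benjamini-Hochberg over all genes tested. To be called a gene needed an adjusted p not above 0.05, a log2 change of 1 or more in either direction and a mean normalized count not below 5, which 37 members reached. Positive differences are higher in males or at the later stage. Each SE was derived from the test, as the absolute log2 change divided by the square root of its F statistic. No p-value was computed over the members as a list. The p-values measure the spread between biological repeats, and 60 pairs of libraries of a group were compared without finding identical counts. Count ratios carry exact 95% intervals. Alternatives were DESeq2 1.42.0 and its size factors, no TMM factor, no filter, each stage alone, counts thinned to the smallest library, a replicate block, each library left out, and fits without YA hermaphrodite repeats 1 and 4 or without the L1 libraries of number 1.

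Per-library values are given for up to 4 members of each family with the highest mean count, for each member called between the sexes at L1 to L3, called higher in hermaphrodites at L4 or YA, or rising in hermaphrodites from L4 to YA, and for spe genes by role. Other members named for how their libraries lay, such as nspd-10, ssp-33 and ssp-37, and the pairs behind the count ratios, were chosen after their values were seen. Positions came from Ensembl release 115 of WBcel235 for 53 members and from RefSeq for 2. No sequence is shown, since none was held in the sources used here. At L1 the deviations of same-numbered male and hermaphrodite libraries correlated at 0.136 to 0.587, over 0.1 in each of the 4 pairs. The highest value was that of the libraries numbered 1. Among the others, unlike numbers correlated as well, with 0.348 for male 2 and hermaphrodite 4 against 0.136 for male 2 and hermaphrodite 2. A pairing by number was therefore not shown for them. At no other stage did every pair pass 0.1. The values of 1 member, which stays in all counts and medians, are not reported here. Figures were drawn with matplotlib 3.10.9.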

Additional observations from a re-analysis of the deposited data

Results flagged for a closer look

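Among 133 groups of 4 libraries with a mean of at least 5 CPM, 5 held a library apart from the others, and chance gives about 1 group in 20. They were gsp-4 in L3 male library 3 (26.2 CPM), nspd-4 in L4 hermaphrodite library 3 (54.9 CPM), nspd-4 in YA hermaphrodite library 2 (85.4 CPM), nspd-5 in YA hermaphrodite library 3 (199 CPM) and nspd-9 in YA male library 3 (173 CPM).

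The change from L4 to YA differed between the sexes for 14 of the 41 tested members in a test of that difference in edgeR. Of all genes 17.2% were more positive and 16.4% more negative in males, a share near that of the members. Those more positive in males included fer-1 (log2 difference 4.03), gsp-3 (2.18), spe-41 (2.48), spe-47 (2.38), spe-6 (2.04), spe-8 (2.52), ssp-16 (2.26) and ssp-34 (1.85). Without YA hermaphrodite libraries 1 and 4 these differences were 7.09, 5.41, 2.51, 2.48, 2.84, 4.71, 5.05 and 3.52 in the same order. The change was more negative in males for nspc-14 (-4.31), nspc-20 (-2.66), nspc-4 (-4.20), spe-38 (-2.01) and ssp-35 (-2.77). Without the same libraries spe-38 was at -0.32 and ssp-35 at -0.96, neither called. nspc-20 lost its call on leaving out any of 10 libraries (-2.72 to -2.17), ssp-35 without L4 hermaphrodite repeat 3 or L4 male repeat 1 or YA hermaphrodite repeat 1 or 4 (-2.41 to -1.97) and spe-38 without L4 male repeat 2 or 3 or YA hermaphrodite repeat 1 (-1.83 to -1.57).

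The change from L3 to L4 differed for 8 members in the same kind of test, beside 3.63% of all genes more positive and 6.02% more negative in males. Those with a smaller change in males included gsp-4 (-1.26), nspd-1 (-1.88), nspd-2 (-1.94), nspd-4 (-1.24), nspd-5 (-1.61) and nspd-6 (-2.07), and it was larger in males for spe-15 (1.13).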

How the results depend on the processing

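Over all settings 256 calls of a member in a comparison were recomputed and none reversed. DESeq2 size factors kept 252, DESeq2's Wald test 244, no filter 245, no TMM factor 234, leaving out YA hermaphrodite libraries 1 and 4 242, leaving out the L1 libraries of number 1 247, each stage alone 63 of 67, and thinned counts 181 of 231, where the limit on mean counts alone removes genes. With a replicate block 78 of 80 calls between the sexes and 171 of 176 calls between stages were kept. At L1 the block gave 0 calls in either direction, as without it, and at L3 it gave 22 members higher in males. Of 261 counts and mean shares, 216 stayed within 1.5 times (shares within 1 SD).

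Without YA hermaphrodite libraries 1 and 4, nspd-10, ssp-11, ssp-19, ssp-31 and ssp-9, not called from L4 to YA in hermaphrodites with all libraries, turned to falls of -6.28, -2.41, -1.56, -1.49 and -2.19. The falls from L4 to YA in hermaphrodites then numbered 15, those from L3 to L4 0, the members higher in hermaphrodites 1 at L2, 1 at L3 and 2 at YA, the members higher in L1 males 1, and the members whose change was more negative in males 12 for L3 to L4 and 3 for L4 to YA, against 18 more positive.

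Under DESeq2 size factors, no TMM factor, no filter and DESeq2's test 1 member was higher in L1 males. With no TMM factor 1 member rose from L1 to L2 in males, 4 rose from L4 to YA in hermaphrodites and 3 changed more negatively in males from L4 to YA. With no filter the last comparison held 14 more positive and 2 more negative members. DESeq2's test gave 1 rise from L1 to L2 in males, 2 falls from L4 to YA in hermaphrodites and 3 members more negative in males. With each stage alone the members higher in hermaphrodites were 1 at L3, 0 at L4 and 2 at YA. Without the L1 libraries of number 1, 1 member was higher in L1 hermaphrodites, and falls from L1 to L2 numbered 1 in males and 3 in hermaphrodites.

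Thinning left 14 members higher in males at L3, 0, 0 and 1 higher in hermaphrodites at L3, L4 and YA, male changes of 0 rises and 1 fall from L1 to L2 and 1 fall from L4 to YA, and hermaphrodite changes of 1 rise from L1 to L2, 11 rises from L2 to L3, 0 falls from L3 to L4 and 2 falls from L4 to YA. Between the sexes it left 0 members more positive from L3 to L4 and 1 more negative from L4 to YA. From TMM-scaled values the mean member shares were 0.00339%, 0.0393% and 0.333% in L1, L3 and L4 males and 0.00387% and 0.156% in L1 and L4 hermaphrodites.

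Leaving out 1 library, counts higher in males and in hermaphrodites ranged over 0 to 1 and 0 to 1 at L1, 0 to 0 and 0 to 1 at L2, 21 to 23 and 1 to 2 at L3, 16 to 22 and 1 to 2 at L4, and 27 to 29 and 4 to 5 at YA. Rises and falls in males ranged over 1 to 2 and 1 to 2 (L1 to L2), 26 to 27 and 0 to 0 (L2 to L3), 30 to 31 and 0 to 0 (L3 to L4), and 19 to 22 and 2 to 2 (L4 to YA). In hermaphrodites they ranged over 3 to 4 and 3 to 4, 14 to 17 and 0 to 0, 29 to 29 and 0 to 2, and 5 to 9 and 2 to 9 for the same steps. Changes more positive and more negative in males ranged over 1 to 1 and 6 to 8 (L3 to L4) and 8 to 14 and 2 to 5 (L4 to YA). Falls from L4 to YA in hermaphrodites were 3 without YA hermaphrodite library 2 and 2 without library 3, and the last comparison held 14 more positive members without YA hermaphrodite library 1. Mean member shares in males ranged over 0.00478 to 0.00532%, 0.00353 to 0.00388%, 0.0362 to 0.0374%, 0.273 to 0.305% and 0.705 to 0.748% from L1 to YA, and in hermaphrodites over 0.00506 to 0.00600%, 0.00413 to 0.00448%, 0.00815 to 0.00955%, 0.131 to 0.137% and 0.181 to 0.246%.

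Scaling moved the median log2 difference of all genes to 0.21 at L4 and 0.18 at YA under DESeq2 size factors, and to -0.53 from L1 to L2 in hermaphrodites with no TMM factor. The smallest library held 1724365 counts, so members of a few CPM rest on few counts. The nspd and ssp genes may share reads, sex and strain cannot be told apart, and the cause of the split among YA hermaphrodite libraries was not tested.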

Other observations

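Beside the sperm genes, 5 of 6 tested male neuron and tail genes were higher in L4 males and 4 in YA males, and both tested seminal fluid genes were higher in males at L4 and YA in edgeR. Of the 17 tested germline genes used by both sexes, 6 were higher in hermaphrodites at L4, and at YA 9 were higher in hermaphrodites and 1 in males. Of the 3 other tested sperm genes the number higher in males was 1 at L3, 1 at L4 and 1 at YA, and 1 was higher in hermaphrodites at YA. Over all genes 7.62%, 13.8% and 22.3% were higher in males at L3, L4 and YA. Higher in hermaphrodites were 14.1% at L4 and 21.8% at YA. fem-2, a phosphatase of the sex determination pathway, was at 66.5, 181, 184 and 86.0 CPM in YA hermaphrodite libraries 1 to 4, highest in libraries 2 and 3, where gsp-3 and nspd-10 were lowest. The scaling raised libraries 2 and 3 beside 1 and 4, so per UMI the gap of fem-2 was smaller. Its counts were 170, 586, 598 and 314 in libraries of 2479432, 5450105, 6096830 and 3533092 UMIs.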
